A study of Mus musculus with 8 samples.

Results

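The upper layers of the isocortex were examined in 8 coronal brain sections as the spots of a Visium array, a slide that captures RNA at known places in spots 55 µm wide, each of which can hold several cells or parts of cells. Member spots were selected on their own expression: in each section, the 6% of kept spots with the most UMIs (unique RNA molecules counted) of Lamp5, Cux2, Rspo1, Ddit4l and Stard8 per 10000 UMIs of the spot. This gave 1278 member spots of 21328 kept spots, with 141 and 154 for Control, 153 and 164 for PTX, 166 and 170 for PTX+GCV, and 169 and 161 for PTX+ABT263.

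All mice carried p16-3MR, a transgene in which the promoter of p16 drives a red fluorescent reporter and a viral thymidine kinase, so that ganciclovir (GCV) kills the cells that express it. All are labelled male and 9 to 10 months old. Control mice were given vehicle, and PTX mice paclitaxel, a drug that stabilises microtubules, at 5 mg/kg/day in 2 cycles of 5 days that lay 7 days apart. PTX+GCV mice were then given GCV at 25 mg/kg/day, and PTX+ABT263 mice ABT263 (navitoclax), an inhibitor of BCL-2 family survival proteins, at 1.5 mg/kg/day, each in 2 cycles of 5 days, and the other groups vehicle. Brains were taken 6 months after PTX and cut at 10 µm. The comparisons ask what PTX left behind in the upper layers and whether either senolytic treatment altered it. Each group has 2 sections, and no label says whether they came from separate mice, so the p-values measure the spread between these sections, which may be technical. An exact permutation test of 2 sections against 2 cannot go below p = 0.33.

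The isocortex is built of layers that run parallel to the surface of the brain. Layers 2 and 3 hold excitatory neurons that connect cortical areas with each other, and layer 1 above them is made of dendrites, axons, glia and scattered inhibitory neurons under the meninges. Cux2, a transcription factor, marks excitatory neurons of the upper layers, and Lamp5, a membrane protein, is found both in upper layer excitatory neurons and in a class of inhibitory neurons.

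Depth and identity differed between sections before any comparison. The median member spot held between 10295 UMIs (Control 1) and 28411 UMIs (PTX 1), and the members of a section summed to between 1379264 and 4230412 UMIs. In both sections labelled PTX+ABT263, Xist, the RNA that coats and silences an X, stood in member spots at 19.7 and 20.7 CPM (counts per 1e6 UMIs, scaled by TMM factors), against 0 in the other 6 sections. Ddx3y, a Y-linked RNA helicase, stood at 0 in both and between 27.1 and 29.4 CPM in the other 6. Both go against the male label, so these are called the sections labelled PTX+ABT263, and the count for PTX against Control is also given without them. Whether the mice were female or the samples were exchanged is not known, so in every comparison of these sections sex or sample identity and ABT263 cannot be told apart. Members of any 2 sections shared 0 to 44 spot barcodes, which mark positions that every array has.

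Lamp5 gave 73.8% of the marker UMIs of the members, Cux2 9.09%, Ddit4l 7.30%, Rspo1 5.06% and Stard8 4.71%. The median score was 10.4 and 6.76 for Control, 9.81 and 10.4 for PTX, 9.15 and 9.75 for PTX+GCV, and 12.005 and 10.2 for PTX+ABT263. At the threshold the last spot inside and the first outside scored 4.66 and 4.62 in Control 2, the lowest, and 8.84 and 8.83 in PTX+ABT263 section 1, the highest. No member lacked marker UMIs, and the median score of all other spots lay between 0 and 0.864. Between 70 and 103 members of a section were also members when the score left out Lamp5.

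The members formed a band along the outer surface of the cortex in all 8 sections, outside a parallel band of deep layer spots that were chosen in the same way by Rprm, Hs3st4, Cplx3, Ccn2 and Nxph4, genes of layer 6 and the subplate. The score did not use position. The median distance of a member to the outer tissue edge was 3.46 and 2.65 spot spacings of 100 µm for Control, 2.65 and 3.00 for PTX, 2.65 and 2.65 for PTX+GCV, and 3.46 and 3.00 for PTX+ABT263. The median of all other spots lay between 7.21 and 10.8 spacings. Members were nearer to the edge in 8 of 8 sections, by 5.59 ± 0.86 spacings on average (SD, n = 8 sections, exact two-sided sign-flip permutation p = 0.00781, the smallest p that 8 sections can give).

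At a distance of up to 1 spacing a median of 6.58% of spots over the sections were members, with 1.90% in PTX 2 as the lowest and 17.2% in Control 2 as the highest share, from over 1 to 2 spacings 21.6%, from over 2 to 3 spacings 22.8%, from over 3 to 4 spacings 17.7% and from over 4 to 5 spacings 6.05%. Beyond 8 spacings it was under 1%. Where tissue ran past the capture area its border is not an edge, so distances there are too long.

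**Figure D1:**
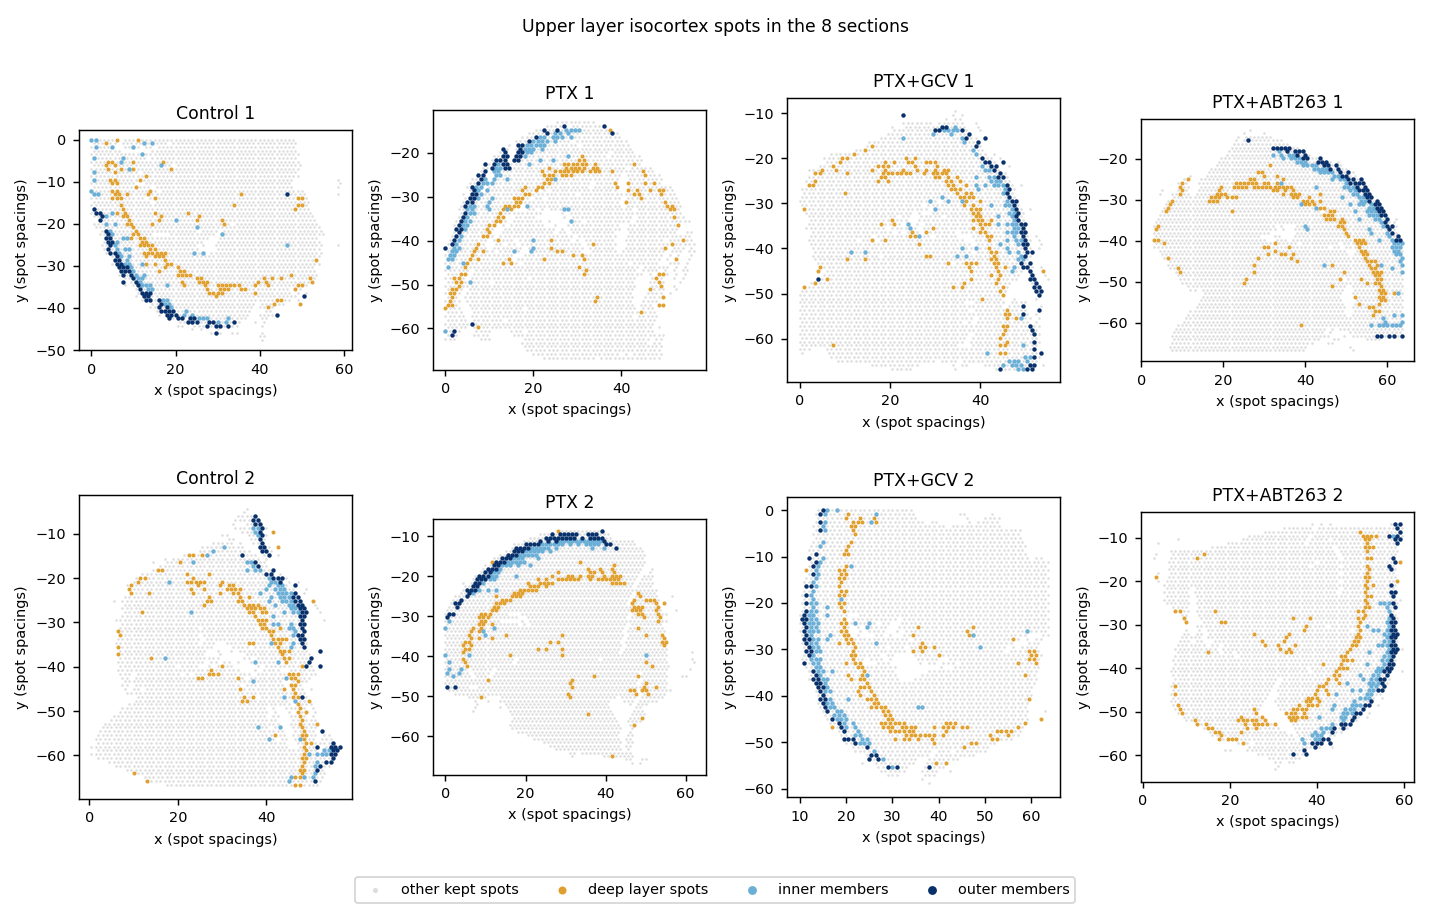
Position of member spots (dark blue, outer members nearer to the tissue edge than the median member; light blue, inner members), deep layer spots (orange) and other kept spots (grey) in each of the 8 sections, in spot spacings. The members form an outer band and the deep layer spots an inner one in each section, with scattered members inside.

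**Figure D2:**
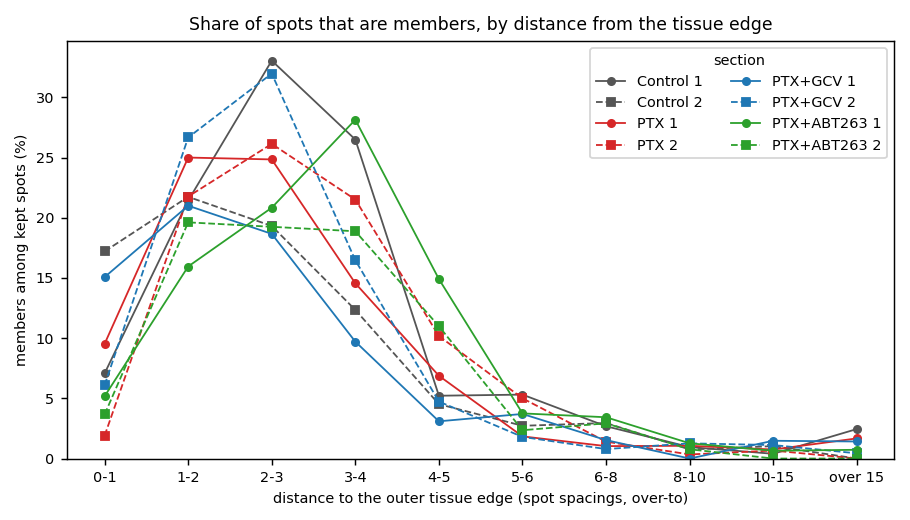
Percent of kept spots that are members by distance to the outer tissue edge in spot spacings, with 1 line per section coloured by group. The share peaks between 1 and 4 spacings in the 8 sections, and its median falls under 1% beyond 8 spacings.

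Members also lay next to each other. Of the neighbours of a member 44.5% to 61.2% were members, against 2.56% to 3.34% of the neighbours of another spot. Of the 1278 members 956 had at least 2 member neighbours and 176 had none. Summed over sections, the 176 isolated members held 1813 CPM of layer 5 genes against 386 in the 956, 4162 CPM of oligodendrocyte genes against 1793, 1482 CPM of meningeal and fibroblast genes against 627, and 401 CPM of other upper layer genes against 760. So the isolated spots carried more RNA of deeper layers and of myelin than those in the band.

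The identity of the members was read from genes that the score did not use, as a description, since the members were chosen on expression. The other upper layer genes were higher in members in 8 of 8 sections, at 610 to 838 CPM in sum against 427 to 525 in all other spots, with 6 of 9 genes higher. Rasgrf2, a Ras exchange factor of layer 2 and 3 neurons, stood at a median of 217 CPM over the sections against 83.0, and Cux1, a relative of Cux2, at 115 against 52.6. Wfs1, a protein of the endoplasmic reticulum, was instead lower, at 61.5 CPM against 92.0. Mdga1 was lower in 8 of 8 sections and Otof in 7 of 8.

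Genes of cortical excitatory neurons summed to 5614 to 7855 CPM in members against 2444 to 3028, a mean log2 ratio of 1.24 ± 0.12 (SD over 8 sections). Layer 5 genes had a mean log2 ratio of -1.87 ± 0.32 and layer 6 and subplate genes of -1.37 ± 0.21, lower in 8 of 8 sections each. Thalamic genes stood at -2.97 ± 0.32, hippocampal genes at -1.74 ± 0.25 and oligodendrocyte genes at -1.43 ± 0.23. Layer 4 genes did not separate the spots as clearly, with a mean log2 ratio of 0.37 ± 0.29, above 0 in 7 of 8 sections. Astrocyte genes lay close to the other spots (0.06 ± 0.09) and microglial genes lower (-0.44 ± 0.13). The label is borne out by these lists for the members summed per section, with other regions at low levels. It is less so for the 176 isolated members, summed over sections without TMM factors. They held 401 CPM of other upper layer genes, below the 427 to 525 of all other spots. Their layer 5 genes stood at 1813 CPM, close to the 1838 to 2271 of all other spots. Their cortical excitatory neuron genes, at 4495 CPM, stood above all other spots.

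**Figure D3:**
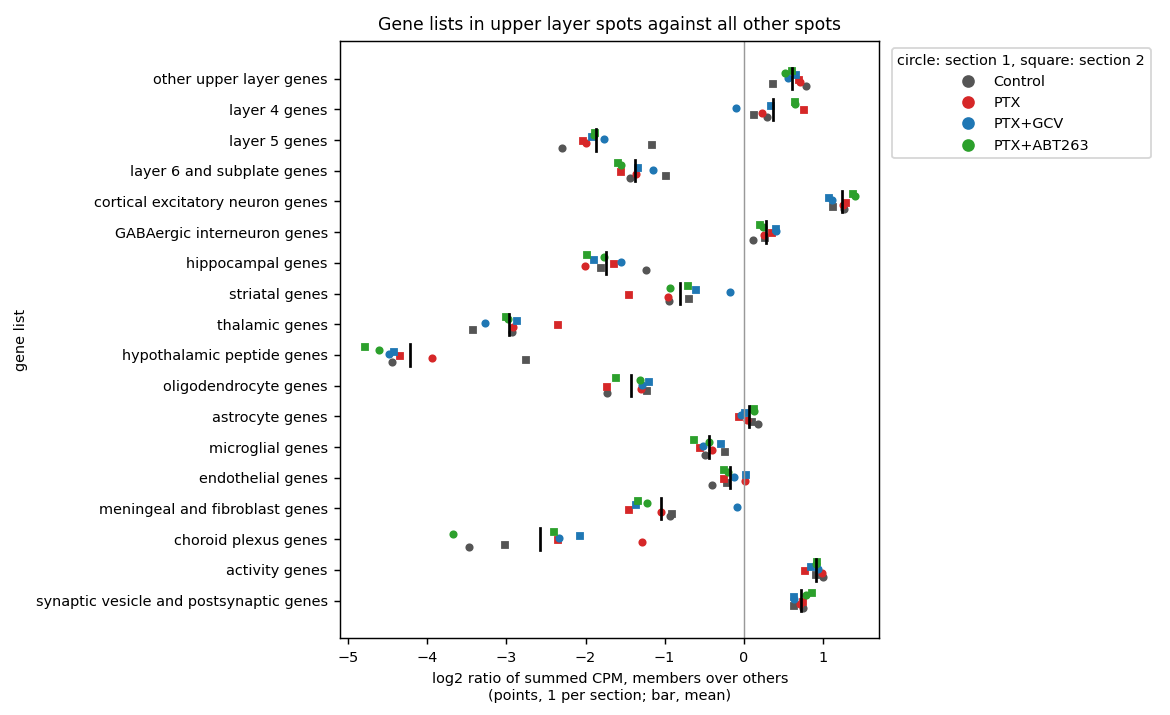
Log2 ratio of summed CPM in member over other spots for 18 gene lists, 1 point per section (circle, section 1; square, section 2) coloured by group, with a bar at the mean of the 8 sections. Upper layer, excitatory neuron, activity and synaptic genes lie above 0 in 8 of 8 sections, and layer 5, layer 6, thalamic, hypothalamic and oligodendrocyte genes below 0 in 8 of 8.

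Among genes with at least 50 CPM in the members of every section, Vip, a peptide of inhibitory neurons, had the highest ratio to all other spots outside the score, at 71.7 to 131 CPM (median 113) against 19.2 to 28.4, a mean log2 ratio of 2.05 ± 0.30. Cabp1, a neuronal calcium-binding protein, followed at a median of 473 CPM against 133, and then Igfbp6, which binds insulin-like growth factors, at 205 against 58.1. Cd34, a surface glycoprotein of vessels and progenitor cells, stood at 83.7 CPM against 23.3. The genes include 2 of potassium channels, Kcnab3, a beta subunit, at 128 CPM against 36.2, and Kcnh7, a pore subunit, at 104 against 30.2. Mlip stood at a median of 76.5 CPM against 24.8. Vip did not stand for its list: of 18 inhibitory neuron genes 8 were higher in members, and their sum had a mean log2 ratio of 0.28 ± 0.10.

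Genes of the synapse and of neuronal activity were also high. Nrgn, neurogranin, which binds calmodulin in dendritic spines, stood at 3786 to 6006 CPM against 1394 to 1929, and Camk2n1, an inhibitor of the kinase CaMKII, at 3118 to 4939 against 1212 to 1590. Egr3, a transcription factor induced by activity, stood at a median of 251 CPM against 98.7. The 26 activity genes were higher in members by 0.91 ± 0.08 on the log2 scale and the 18 synaptic vesicle and postsynaptic genes by 0.72 ± 0.08. Epop, Cdk2ap1 and Rassf3 were also among the leading 15.

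The lowest ratios belonged to genes of other regions. Prkcd, a protein kinase C of thalamic neurons, stood at a median of 12.6 CPM in members against 266, a mean log2 ratio of -4.17 ± 0.37. Tcf7l2, a transcription factor of the thalamus, stood at 8.24 CPM against 102, Zic1 at 4.42 against 61.8, and Ttr, the thyroid hormone carrier of the choroid plexus, at 179 against 2545. Nnat, neuronatin, had 26.8 CPM against 266, Agt, angiotensinogen, which astrocytes of deeper regions make, 9.49 against 83.9, and Calb2, calretinin, 13.3 against 85.6. Zcchc12, Ramp3 and Ntng1 complete the lowest 10.

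Member spots differed most from one another in a few abundant transcripts. For 3593 genes with at least 0.5 UMIs per member spot in every section, the spread of counts over member spots was set against the spread that counting alone gives, where 1 means no more than counting, and the median gene stood at 1.08. Bc1, a non-coding RNA of dendrites, led at a mean of 140 over sections (75.4 to 213), followed by Ptgds, the prostaglandin D synthase of the meninges, at 71.1 (3.58 to 227). The myelin gene Mbp (22.3) and 4 mitochondrially encoded genes, led by mt-Co1 (25.8), came next, with Ttr (23.4, from 1.26 to 66.9 over sections). The peptide genes Sst (20.6) and Npy (16.2) of inhibitory neurons, and Pcp4 (18.8), a calmodulin regulator of deeper layers, were also among them.

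Members were then compared by their distance to the tissue edge. The members of each section were split at the median distance to the tissue edge, which gave 59 to 81 outer and 71 to 110 inner members, and compared within sections. The farthest inner member lay 8.89 to 23.3 spacings from the edge, so the inner side also holds scattered members off the band. Of 10029 genes tested, 639 were higher in outer members and 572 lower (edgeR quasi-likelihood test with section as a block, Benjamini-Hochberg adjusted p under 0.05), that is 6.37% and 5.7% of genes. With total counts in place of TMM factors the split was 539 and 739, and with DESeq2 it was 319 and 237. With members within 10 spacings of the edge, a setting chosen after seeing the data, it was 610 and 550. Sections are the unit of this test, so the spots within a section count once.

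Most of the other upper layer genes were higher on the outer side. Of 8 other upper layer genes tested, 6 rose towards the surface and 0 fell, with a median log2 difference of 0.73 against 0.00 over all genes. Rasgrf2 stood at 233 to 339 CPM (median 288) in outer and at 100 to 203 CPM (median 162) in inner members, and the outer value was the higher in 8 of 8 sections. The log2 difference was 0.88 (SE 0.07, edgeR adjusted p = 4.11e-12). Calb1, calbindin, a calcium buffer, rose by 0.57 (SE 0.07, edgeR adjusted p = 6.05e-08), and Nectin3, an adhesion protein, by 1.08 (SE 0.14, edgeR adjusted p = 1.86e-07).

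Trpc6, Myh7, Plk5 and Penk were among the genes with the smallest p on the outer side. Trpc6, a calcium-permeable channel, stood at 14.8 to 34.4 CPM in outer and at 3.21 to 11.2 in inner members, a log2 difference of 2.09 (SE 0.18). Myh7, a myosin heavy chain, stood at 28.8 to 67.3 CPM against 3.77 to 24.1 (log2 difference 2.06, SE 0.19), and Plk5, a kinase-like protein of neurons, at 29.5 to 74.95 CPM against 3.81 to 24.9 (log2 difference 1.68, SE 0.14). Penk, the precursor of enkephalin, stood at a median of 151 CPM against 58.2 and was higher in 7 of 8 sections. Enc1, Tsnax, Ddn, Gucy1a1, Cplx2, Hpcal4 and Dgkb also rose towards the surface in 8 of 8 sections, by 0.59 to 1.04 on the log2 scale. Of these, Ddn is dendrin, a postsynaptic protein of dendrites, Cplx2 a regulator of vesicle fusion, Hpcal4 a calcium sensor and Gucy1a1 a subunit of the receptor for nitric oxide.

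Myelin and deeper layer genes led on the inner side. All 11 oligodendrocyte genes tested were lower in outer members. Mbp, myelin basic protein, stood at 507 to 788 CPM (median 692) in outer and 1044 to 1491 CPM (median 1303) in inner members, without overlap, and the log2 difference was -0.91 (SE 0.05, edgeR adjusted p = 3.71e-15). Mobp, another myelin protein gene, stood at a median of 158 CPM against 299. Of 7 layer 5 genes 5 were lower in outer members, with Pcp4 at a median of 198 CPM against 530, and both layer 4 genes tested were lower, Rorb, a nuclear receptor of layer 4, by 1.04 (SE 0.13) and Whrn, whirlin, by 1.49 (SE 0.20) on the log2 scale. Cartpt, a peptide precursor, was lowest, at a median of 20.3 CPM in outer and 90.8 CPM in inner members. Satb1, a chromatin organiser, Cnih3, an auxiliary subunit of AMPA receptors, Cadps2, a factor of vesicle priming, Nrsn1, Rcan2, Ly6e and Kcnab3 were lower too, with Kcnab3 lower in 7 of 8 sections.

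Inhibitory neuron genes lay on both sides. Of 16 tested, 8 were higher and 2 lower in outer members. Vip stood at 96.1 to 223 CPM in outer and at 35.2 to 114 in inner members, a log2 difference of 0.91 (SE 0.11), and Npy, neuropeptide Y, was higher by 0.38 (SE 0.05). Cnr1, the cannabinoid receptor, was higher by 0.64 (SE 0.09). Pvalb, parvalbumin, a calcium buffer of fast-spiking neurons, was instead lower by 0.64 (SE 0.08).

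Activity genes also split, with 7 higher and 4 lower of 24 tested. Nptx2, a secreted organiser of synapses, stood at a median of 90.7 CPM in outer and 34.99 CPM in inner members, and Bdnf, a neurotrophin, at 65.0 against 33.1. Arc, a postsynaptic protein, was lower in outer members by 0.39 (SE 0.05) and Egr1 by 0.31 (SE 0.05). Of 13 mitochondrially encoded genes 12 were higher in outer members, by a median of 0.20, and of 21 nuclear genes of the respiratory chain 3 were lower. Meningeal genes, the markers of the tissue outside the cortex, were higher in outer members for 4 of 5 tested, Igf2 by 1.33 (SE 0.23) and Mgp by 0.93 (SE 0.15). The heat shock gene Hspa1b rose towards the surface by 1.10 (SE 0.14), and Cdkn1a, the gene of the cell cycle inhibitor p21, by 0.80 (SE 0.14, edgeR adjusted p = 9.43e-05), with 17.1 to 41.1 CPM in outer and 9.28 to 21.9 CPM in inner members. What part meningeal RNA has in these differences was not tested.

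**Figure D4:**
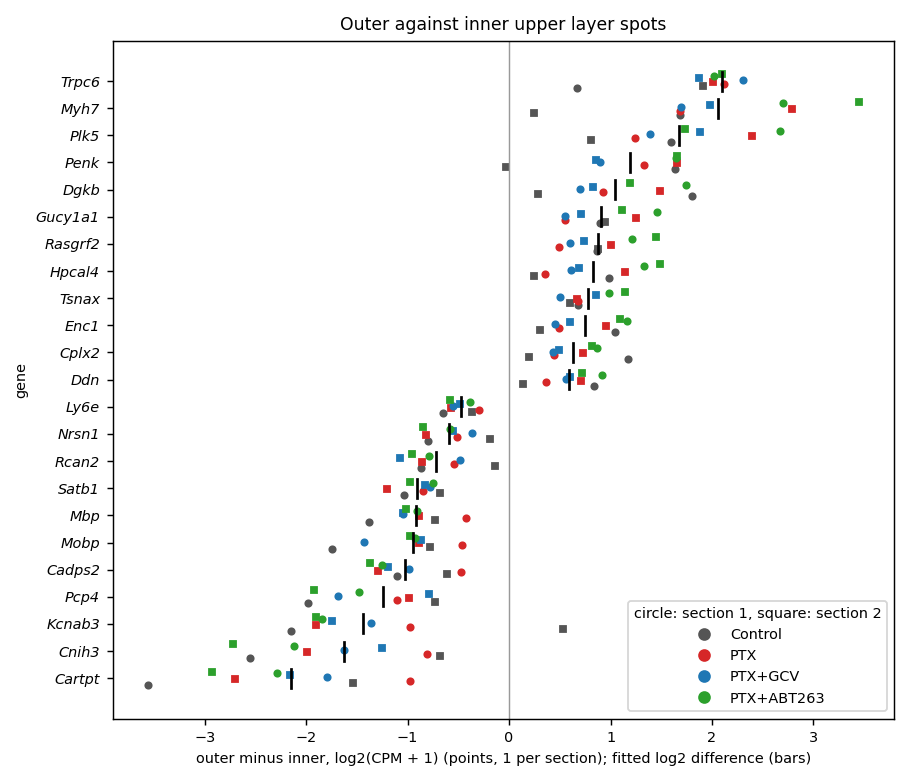
Outer minus inner members in log2(CPM + 1) for 23 of the 24 genes with the smallest p in either direction, with 1 point per section (circle, section 1; square, section 2) coloured by group, and a bar at the fitted log2 difference. The points lie on the side of the bar for each gene except Penk and Kcnab3, for which Control 2 lies on the other side of 0.

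PTX against Control moved few genes of the upper layers. Of 12108 genes tested without the 5 score genes, 4 rose and 24 fell (edgeR quasi-likelihood test, adjusted p under 0.05), which is 0.033% and 0.198% of genes, and 1128 had an unadjusted p under 0.05. With DESeq2, 3 rose and 16 fell, and 7 of these 19 were among the 28. With the counts of members thinned at random to equal totals per section, 3 rose and 18 fell, and 16 of these 21 were among the 28. No list of synaptic, receptor or channel genes held a gene that passed.

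Ttr rose most. It stood in members at 122 and 159 CPM in Control and at 785 and 447 CPM in PTX, so the PTX sections lay above both controls, and the log2 fold change was 2.11 (SE 0.21, edgeR adjusted p = 3.31e-06). In all other spots of the same sections Ttr stood at 2865 and 2506 CPM in Control and at 2161 and 3012 in PTX, and the groups overlapped there. Of the other choroid plexus genes, Folr1, Kl, Clic6, Kcne2 and Ecrg4 did not exceed 8.91 CPM in the members of any section, and Enpp2, which other cells also make, stood at 162.7 to 222 CPM. The 8.91 CPM was that of Ecrg4 in PTX 1. Summed with Ttr, the 7 genes of that list stood in members at 290 and 355 CPM in Control and 1022 and 676 in PTX. They stood at 287 and 309 in PTX+GCV and 384 and 565 in PTX+ABT263. The part of the other genes of that list in the level of Ttr was not tested. With the score without Lamp5 the log2 fold change was 1.77 (edgeR adjusted p = 0.0536).

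The other genes that rose were of low abundance. Ntn5, a netrin family protein, stood at 20.6 and 17.7 CPM in Control and 36.1 and 44.7 in PTX (log2 fold change 1.09, SE 0.19, edgeR adjusted p = 0.0088), and at 3.83 to 6.31 CPM in all other spots of the 8 sections. Ntan1, an amidase of the N-end rule pathway, stood at 46.9 and 49.5 CPM against 76.9 and 77.1 (log2 fold change 0.67, SE 0.14). Usp48, a deubiquitinase, stood at 32.0 and 34.6 CPM against 53.2 and 56.3 (log2 fold change 0.70, SE 0.16). Dimt1, an enzyme of ribosome assembly, did not pass (log2 fold change 1.17, edgeR adjusted p = 0.08).

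Map2, Ddn, Psd and Ppp1r9b were among the genes that fell. Map2, the microtubule-associated protein of dendrites, stood at 470 and 366 CPM in Control and at 252 and 289 in PTX (log2 fold change -0.62, SE 0.12, edgeR adjusted p = 0.0267). Ddn stood at 610 and 468 CPM against 329 and 335 (log2 fold change -0.69, SE 0.14), and Psd, an exchange factor of dendritic spines, at 760 and 527 against 383 and 438 (log2 fold change -0.64, SE 0.13). Ppp1r9b, spinophilin, which binds a phosphatase in spines, stood at 465 and 313 CPM against 224 and 251 (log2 fold change -0.70, SE 0.15). For these genes the control sections lay above both PTX sections in each case, with Control 1 the highest. Groups that lie apart were a condition of the rule that names leading genes, so this separation adds no support.

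Hpcal4, Cdk5r2 and Rab3c fell too. Hpcal4 stood at 448 and 357 CPM in Control and 233 and 240 in PTX (log2 fold change -0.76, SE 0.13, edgeR adjusted p = 0.00693). Cdk5r2, an activator of the kinase Cdk5, stood at 281 and 193 CPM against 124 and 128 (log2 fold change -0.89, SE 0.15), and Rab3c, a GTPase of synaptic vesicles, at 114 and 141 against 82.1 and 67.3 (log2 fold change -0.78, SE 0.14). Camk2d, a subunit of CaMKII, fell by 0.64 (SE 0.13), Rapgef4, an exchange factor that responds to cyclic AMP, by 0.56 (SE 0.12), and Cpne4, a calcium-dependent phospholipid-binding protein, by 0.76 (SE 0.15). Nnat fell by 1.30 (SE 0.22), from 34.1 and 62.3 CPM to 19.7 and 21.7, and Lypd1, which modulates nicotinic receptors, by 1.59 (SE 0.30), with Tmem151b, Luzp2, Ogdhl, Fam219a and Stum falling by 0.62 to 0.76.

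Of 14 astrocyte genes tested, 1 passed, and all 14 had a log2 fold change under 0, with a median of -0.28 against 0.00 over all genes. Slc1a3, a glutamate transporter, stood at 352 and 310 CPM in Control and 235 and 219 in PTX (log2 fold change -0.54, SE 0.12, edgeR adjusted p = 0.0415). Ndrg2, which astrocytes express highly, stood at 557 and 501 CPM against 335 and 364 (log2 fold change -0.59, SE 0.11). The glutamate transporter gene Slc1a2 (log2 fold change -0.41) and the intermediate filament gene Gfap (-0.76) did not pass.

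Of 26 activity genes 1 passed, and 20 had a log2 fold change under 0 (median -0.33). Egr4, a transcription factor induced by activity, stood at 99.5 and 131 CPM in Control and 76.7 and 66.7 in PTX (log2 fold change -0.71, SE 0.15, edgeR adjusted p = 0.0357). Fosb (-0.79), Junb (-0.84) and Arc (-0.51) did not pass (edgeR adjusted p = 0.11, 0.12 and 0.172).

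Malat1, Lars2 and Cdr1os fell too. Malat1, a nuclear non-coding RNA, stood at 542 and 365 CPM in Control and 258 and 191 in PTX (log2 fold change -0.997, SE 0.16, edgeR adjusted p = 0.00262). Lars2, the mitochondrial leucyl-tRNA synthetase, stood at 947 and 162 CPM against 67.8 and 87.6 (log2 fold change -2.80, SE 0.43). Cdr1os stood at 315 and 127 CPM against 74.1 and 93.2 (log2 fold change -1.35, SE 0.29). Control 1 was far above the other 7 sections for Lars2, and had the lowest median depth of member spots. The gene models without a name that passed are counted but not described.

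In the lists of this treatment and tissue few genes passed. Of 12 tubulin genes, the target of PTX, 0 passed, and 11 had a log2 fold change under 0 (median -0.14, with 3 at an unadjusted p under 0.05). Of 11 microtubule-associated genes Map2 was the one that passed. Of 18 synaptic vesicle and postsynaptic genes 0 passed (6 at an unadjusted p under 0.05, all of them lower, median -0.05), of 22 glutamate receptor genes 0, of 13 GABA receptor genes 0 and of 27 potassium channel genes 0 (2, 2 and 4 at an unadjusted p under 0.05). Of 18 inhibitory neuron genes 0 passed, while 15 had a log2 fold change above 0 (median 0.25, 5 at an unadjusted p under 0.05), with Npy at 292 and 351 CPM in Control and 410 and 624 in PTX. Of 15 endothelial genes 0 passed and 12 were above 0 (median 0.20, 4 at an unadjusted p under 0.05). Of 10 senescence and cell cycle inhibitor genes 0 passed, with 0 at an unadjusted p under 0.05, and of 10 secretory phenotype genes 0 passed (3 at an unadjusted p under 0.05). Of 7 layer 5 genes 0 passed, and all 7 had a log2 fold change under 0 (median -0.40, 2 at an unadjusted p under 0.05). Summed, they stood in members at 377 and 1001 CPM in Control, the lowest and the highest of the 8 sections, and at 537 and 450 in PTX, and the part of this layer make-up in the comparison was not tested. Of 7 cortical excitatory neuron genes 0 passed and the median was 0.05, of 13 microglial genes 0 (median -0.13) and of 11 oligodendrocyte genes 0 (median 0.03), with 2, 0 and 1 at an unadjusted p under 0.05. By DESeq2 an adjusted p was given to 840 genes only.

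The fallen genes were set beside the depth of the band. Of the 24, 7 were among the genes higher in outer members and 1 among those higher in inner members, against 6.37% and 5.7% of genes for each side, and the part of depth in the fall was not tested. The median edge distance of the members overlapped between both groups (2.65 to 3.46 spacings in Control and 2.65 to 3.00 in PTX).

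A spot mixes cells, so fewer cells of a type and less RNA per cell cannot be told apart in any of these values. The fall was not shown to be particular to the upper layers. The change in members minus the change in all other spots passed the test for 0 of 12108 genes, or 0% (limma on log2 CPM differences within sections, 703 at an unadjusted p under 0.05, smallest adjusted p = 0.371), and the change in members minus that in deep layer spots for 0 of 11590, or 0% (684 at an unadjusted p under 0.05). Without Control 2 the first of these tests called 27 genes, all with a positive difference. For Ddn the difference was -0.18, for Hpcal4 -0.15, for Map2 -0.24, for Psd -0.37, for Ppp1r9b -0.33 and for Slc1a3 -0.35, below 0 in each. All of them were picked for a fall in the members of these same sections. That choice favours differences below 0, so their shared sign adds no support.

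The count of 28 depended on single sections. It was 49 without Control 1, 110 without Control 2, 12 without PTX 1, 4 without PTX 2 and 16 without the second section labelled PTX+ABT263, and 3 rose and 11 fell without both sections of that group. Without them Map2, Psd, Ppp1r9b, Slc1a3, Egr4, Ntan1 and Usp48 were among those that no longer passed (edgeR adjusted p = 0.0566 to 0.0945), with log2 fold changes close to those above. With the score without Lamp5, Map2, Psd, Ppp1r9b, Slc1a3 and Egr4 did not pass either (log2 fold changes -0.46 to -0.64, edgeR adjusted p = 0.056 to 0.187). Nor did Usp48 (edgeR adjusted p = 0.214), while Ntan1 did (0.0248). With DESeq2, Psd and Ppp1r9b did not pass (adjusted p = 0.0776 and 0.204). Map2 and Slc1a3 did (0.00256 and 0.00814), and Egr4, Ntan1 and Usp48 had no adjusted p.

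**Figure D5:**
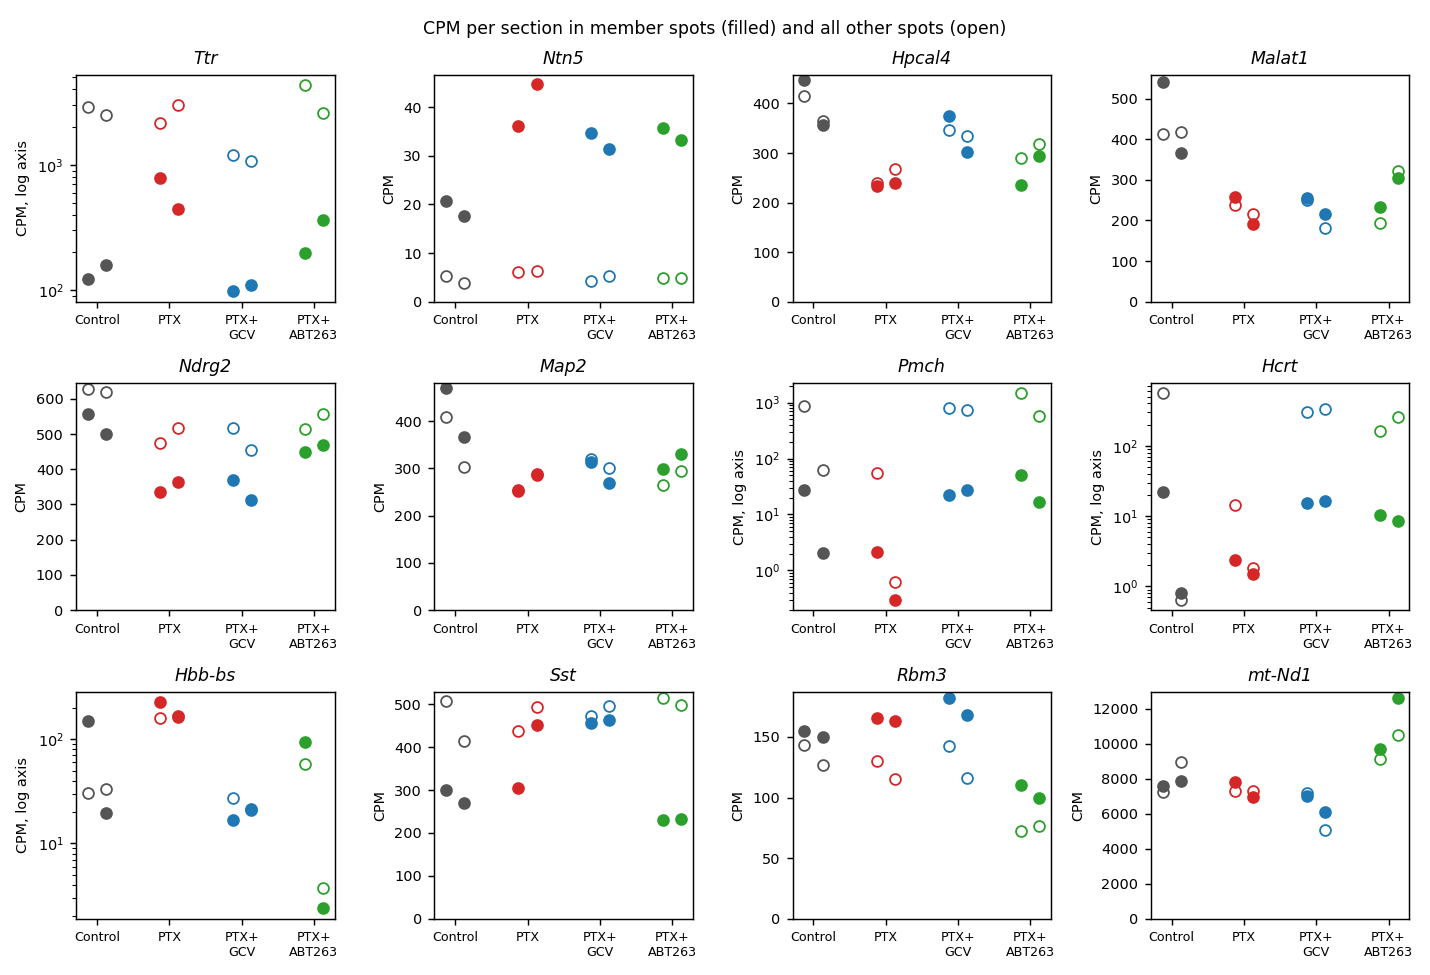
CPM of 12 genes in each section by group, in member spots (filled) and in all other spots (open), with a log axis for Ttr, Pmch, Hcrt and Hbb-bs. The PTX members lie above the Control members for Ttr, where the other spots overlap, and below them for Hpcal4, Malat1, Ndrg2 and Map2, and Sst is lowest in the members of the sections labelled PTX+ABT263.

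PTX+GCV against PTX called few genes, 8 of which belong to the lists of hypothalamic peptides, choroid plexus genes and haemoglobins. Of 12108 genes 3 rose and 6 fell (edgeR, adjusted p under 0.05), which is 0.0248% and 0.0496% of genes, with 533 at an unadjusted p under 0.05. The other is a gene model without a name. DESeq2 called Ttr alone.

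Ttr fell from 785 and 447 CPM to 98.0 and 109 CPM (log2 fold change -2.57, SE 0.22, edgeR adjusted p = 5.78e-08), so that both PTX+GCV sections lay below both PTX sections and both controls. In all other spots of the sections it stood at 2161 and 3012 CPM in PTX and at 1189 and 1070 in PTX+GCV. With the score without Lamp5 the log2 fold change of Ttr was -0.10 (edgeR adjusted p = 0.999). Ecrg4, a peptide precursor of the choroid plexus, fell from 8.91 and 4.47 CPM to 0.965 and 0.294 (log2 fold change -3.54, SE 0.64).

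Pmch, the precursor of melanin-concentrating hormone, and Hcrt, that of orexin, both made in the lateral hypothalamus, rose. Pmch stood at 2.11 and 0.298 CPM in PTX members and at 22.2 and 27.6 in PTX+GCV (log2 fold change 4.23, SE 0.70, edgeR adjusted p = 0.00892). In all other spots it stood at 55.3 and 0.62 CPM against 784 and 735. Hcrt stood at 2.35 and 1.49 CPM against 15.4 and 16.5 in members (log2 fold change 3.00, SE 0.59) and at 14.2 and 1.80 against 299 and 335 in other spots. Avp, vasopressin, fell from 17.8 and 12.2 CPM to 3.38 and 1.47 (log2 fold change -2.76, SE 0.46), beside a fall from 340 and 263 CPM to 10.8 and 7.59 in other spots. With the score without Lamp5 its log2 fold change turned to 0.34. The cut of each section through the hypothalamus and the treatment cannot be told apart for these genes.

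Of 4 haemoglobin genes tested 3 fell, and the other had an unadjusted p under 0.05. Hbb-bs stood at 229 and 164 CPM in PTX and 16.9 and 21.2 in PTX+GCV (log2 fold change -3.34, SE 0.61), Hba-a2 at 74.8 and 59.0 against 10.1 and 6.17, and Hbb-bt at 29.8 and 15.8 against 4.34 and 0.294. The controls stood at 151 and 19.7 CPM for Hbb-bs, across the range of the treated groups. Haemoglobin RNA is that of red blood cells, and the other spots of these sections held it too, at 159 and 169 CPM of Hbb-bs in PTX and 27.3 and 21.2 in PTX+GCV.

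None of the named genes that fell with PTX passed in this comparison, and 5 of them follow as examples. Hpcal4 stood at 375 and 302 CPM in PTX+GCV, Ddn at 486 and 345, Map2 at 314 and 270, Ndrg2 at 368 and 313, and Slc1a3 at 267 and 236. Gfap had the smallest p among other genes that were higher, at 17.4 and 15.5 CPM in PTX and 35.2 and 27.6 in PTX+GCV (log2 fold change 0.90, SE 0.19, edgeR adjusted p = 0.0797), followed by Trp53i11 (0.60) and Stum (0.68). Of 10 senescence and cell cycle inhibitor genes 0 passed, and the median was 0.03. Cdkn1a had a log2 fold change of 0.66 (edgeR adjusted p = 0.997). Of 13 BCL-2 family genes and of 10 secretory phenotype genes 0 passed (4 and 0 at an unadjusted p under 0.05). The lists of synaptic, receptor, channel, tubulin, astrocyte, microglial, endothelial and activity genes held 0 genes that passed (0 to 2 each at an unadjusted p under 0.05). The difference from all other spots passed for 0 of 12108 genes, or 0% (454 at an unadjusted p under 0.05). The count of 9 was 4 without PTX 1, 1 without PTX+GCV 1 and 5 without PTX+GCV 2.

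The sections labelled PTX+ABT263 against PTX gave 12 genes that rose and 19 that fell of 12108 (edgeR, adjusted p under 0.05), which is 0.0991% and 0.157% of genes, with 1127 at an unadjusted p under 0.05. With total counts 6 rose and 36 fell, and that scaling moved the median of all genes by -0.13 on the log2 scale. Of the 12108 genes tested, 11711 were placed on chromosomes other than X and Y. Of the 31, 7 lie on chromosome X or Y. Beside Xist and Ddx3y these include Eif2s3y, at 28.4 and 19.1 CPM in PTX and at 0.411 and 0, Kdm5d, Uty, and the X-linked Eif2s3x, at 60.5 and 57.2 against 107 and 104. Elsewhere 10 genes rose and 14 fell.

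Of 13 mitochondrially encoded genes 2 rose, and all 13 had an unadjusted p under 0.05, with a median log2 fold change of 0.50. mt-Nd1, a subunit of complex I, stood at 7803 and 6961 CPM in PTX and 9694 and 12592 for PTX+ABT263 (log2 fold change 0.59, SE 0.12, edgeR adjusted p = 0.027), and mt-Nd3 at 2844 and 2594 against 3530 and 4668. With total counts neither passed (mt-Nd1 log2 fold change 0.46, edgeR adjusted p = 0.0656). The median share of mitochondrial UMIs in member spots was 13.3% and 12.2% for PTX and 15.4% and 17.5% for PTX+ABT263, the highest of the 8. Of 21 nuclear genes of the respiratory chain 0 passed (2 at an unadjusted p under 0.05), and the median was 0.13.

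Of 18 inhibitory neuron genes 2 fell, and the median was -0.32. Sst, somatostatin, stood at 305 and 452 CPM in PTX and at 230 and 233 for PTX+ABT263 (log2 fold change -0.71, SE 0.13, edgeR adjusted p = 0.00998). With the top 10% of spots the log2 fold change of Sst was -0.28 (edgeR adjusted p = 0.564), and with the score without Lamp5 it was -0.32 (edgeR adjusted p = 0.518). It did not pass without PTX 2 or without either section labelled PTX+ABT263. Control and PTX+GCV stood at 301 and 269 and at 457 and 464 CPM, and all other spots of the 2 groups at 438 and 495 against 515 and 499. Cnr1 stood at 97.3 and 76.0 CPM against 56.3 and 58.1 (log2 fold change -0.60, SE 0.13, edgeR adjusted p = 0.0463), and did not pass with DESeq2 (adjusted p = 0.358). The difference of the change from that in all other spots was -0.80 for Sst (limma adjusted p = 0.938) and -0.45 for Cnr1 (limma adjusted p = 0.998), so neither was shown to be particular to the upper layers.

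Acta2 and Klf2, genes of vessels, fell. Acta2, smooth muscle actin, stood at 24.6 and 11.6 CPM in PTX and at 6.98 and 3.06 (log2 fold change -1.93, SE 0.36), and Klf2, an endothelial factor induced by flow, at 26.3 and 18.2 against 6.57 and 10.5 (log2 fold change -1.36, SE 0.28). They were 1 of 11 pericyte and smooth muscle genes and 1 of 15 endothelial genes that passed. With DESeq2 neither passed (adjusted p = 0.0539 for Acta2 and 0.187 for Klf2). Rbm3, a cold-induced RNA-binding protein, stood at 165 and 163 CPM against 110 and 99.3 (log2 fold change -0.65, SE 0.11, edgeR adjusted p = 0.0039). Clk1, a kinase of splicing factors, fell by 0.92 (SE 0.16), and the non-coding RNAs Snhg11 by 0.86 (SE 0.13) and Meg3 by 0.69 (SE 0.12). Ttr fell to 198 and 362 CPM (log2 fold change -1.13, SE 0.20), with 4340 and 2585 CPM in all other spots of these sections, and DESeq2 did not call it. Avp fell and Pmch rose, as with GCV, beside 3.04 and 5.54 CPM of Avp and 1459 and 581 CPM of Pmch in all other spots.

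Of the genes that rose outside these lists, Fam107a, an actin-binding protein of astrocytes and neurons, stood at 229 and 223 CPM in PTX and 341 and 347 for PTX+ABT263 (log2 fold change 0.61, SE 0.10, edgeR adjusted p = 0.00337). Rbfox1, a neuronal splicing factor, stood at 31.4 and 31.0 CPM against 48.5 and 58.8, Pura at 24.4 and 31.3 against 41.1 and 59.8, Btbd17 at 21.3 and 31.9 against 45.6 and 45.9, and Cmip at 3.75 and 7.45 against 13.6 and 25.8. Of 14 astrocyte genes 0 passed and all 14 had a log2 fold change above 0 (median 0.20, 5 at an unadjusted p under 0.05). Of 13 BCL-2 family genes, the targets of ABT263 among them, 0 passed (1 at an unadjusted p under 0.05), and of 10 senescence and cell cycle inhibitor genes 0, with 0 at an unadjusted p under 0.05. With TMM factors all 12 tubulin genes had a log2 fold change above 0, and 0 passed (median 0.21, 3 at an unadjusted p under 0.05). The difference from all other spots passed for 0 of 12108 genes, or 0% (547 at an unadjusted p under 0.05). The count of 31 was 71 without Control 1, 80 without Control 2, 11 without PTX 1 and 9 without the second section labelled PTX+ABT263.

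Both comparisons with PTX share the PTX sections, and PTX against Control does too. So a gene that is higher or lower in PTX than in the other groups can appear in more than 1 of them. Ttr is such a gene: its members stood at 122 and 159, 785 and 447, 98.0 and 109, and 198 and 362 CPM in Control, PTX, PTX+GCV and the sections labelled PTX+ABT263. It was not high in PTX alone, since the sections labelled PTX+ABT263 lay above both controls. With the score without Lamp5 Ttr passed in none of these comparisons (edgeR adjusted p = 0.0536, 0.999 and 0.370 for PTX, PTX+GCV and PTX+ABT263).

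Cdkn2a, the gene of p16 and the target of the study, was too sparse to compare. It was found in 1 of 154 member spots of Control 2 (0.649%, exact 95% interval 0.0164% to 3.56%) and in 1 of 153 of PTX 1 (0.654%, 0.0165% to 3.59%), with 1 UMI each. In the members of the other 6 sections it was in 0 of 141 to 170 spots, which allows a share of up to 1.76% to 2.13% (3 counts of the total) or 2.15% to 2.58% by the exact 95% interval. The other spots of the sections held it in 0.0907% and 0.165% of spots for Control, 0.624% and 0.35% for PTX, 0.115% and 0.15% for PTX+GCV, and 0.34% and 0.238% for PTX+ABT263. These shares lie within what the member spots allow, so no difference between members and other spots can be read from them. A difference between groups in the upper layers was not detectable at this depth. These intervals cover counting error only.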

How the data were processed

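The deposited values are raw UMI counts for each gene in each spot, which the authors obtained with Space Ranger, version 1.2.1 by the headers, and mm10, and come with array positions. Seurat 4.0 is a further tool in the submitters' processing notes. Tissue spots were kept with at least 200 genes and at most 30% mitochondrial UMIs, no doublet caller was run, and members were the top 6% by score. Members, lists and comparisons were chosen with earlier results of these data known. UMIs were summed per section and tested with edgeR 4.0.16 (TMM, filterByExpr, all 4 groups in the fit, the 5 score genes left out of the tests). DESeq2 1.42.0 was an alternative. Standard errors were obtained by dividing each absolute log2 fold change by the root of its F statistic. Differences against other or deep layer spots used limma 3.58.1 on log2 CPM with a prior count of 2. Ratios of single genes used CPM plus 1. Outer and inner members were fitted with section as a block. Section numbers do not pair sections (residual correlations -0.05 to 0.03), and sections of a group correlate at 0.968 to 0.986. Named genes are up to 10 each way with the smallest adjusted p among those that passed with groups apart, the 5 with the smallest p where under 5 passed, up to 4 per list, 12 each way for outer and inner members, and 15 higher and 10 lower ones against other spots. Some results that this rule names are not reported here. Further genes that passed were named after their values were seen. R 4.3.3, Python 3.11.15, numpy 2.4.6, scipy 1.17.1 and pandas 2.3.3 were used, with steps tested on simulated data. Alternatives were other thresholds and scores, filters, scaling, thinned counts and leaving out each section.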

Additional observations from a re-analysis of the deposited data

Results flagged for a closer look

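Measures taken within each of the 8 sections were examined for a section that lies apart from the other 7, 27 measures in all, of which chance marks about 1 in 20. Cdkn2a in members minus other spots was 0.272 CPM in Control 2 and -0.287 to -0.108 in the other 7 sections, and rests on 1 UMI in a member spot. The outer minus inner log2 CPM of Trpc6 was 0.67 in Control 1 against 1.87 to 2.30 in the others. That of Penk was -0.0314 in Control 2 against 0.86 to 1.65, and that of Kcnab3 was 0.53 in Control 2 against -2.15 to -0.97. Control 2 also had the lowest score at the threshold.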

How the results depend on the processing

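Leaving out each section in turn gave 4 to 110 genes for PTX against Control (28 in all sections), 1 to 12 for PTX+GCV against PTX (9) and 9 to 80 for the sections labelled PTX+ABT263 against PTX (31). It gave 0 to 27 (27 without Control 2, all positive), 0 to 0 and 0 to 1 for the differences against all other spots (0 each), 0 for the difference against deep layer spots, and 913 to 1466 for outer against inner members (1211). A lone section was assumed to vary like the other groups. The edge distance difference ranged from -5.73 to -5.34 spacings and Cdkn2a from -0.178 to -0.0979 CPM. The cause of any of these moves was not tested. For PTX against Control other settings gave 17 genes with total counts, 119 without a filter on low counts, 15 with 2 groups in the fit, 14 without the PTX+ABT263 group, 13 and 49 with the top 3% and 10% of spots, 57 with the score without Lamp5 and 12 among members with 2 or more member neighbours. For PTX+GCV they gave 1 with DESeq2, 26 without a filter, 3 with the top 3%, 3 with 2 or more member neighbours and 5 with all spots under tissue. For the sections labelled PTX+ABT263 they gave 124 without a filter, 88 with 2 groups, 19 with the top 3% and 15 outside chromosomes X and Y. The difference of PTX against Control in members from all other spots gave 1 gene with the top 10% and 1 with the score without Lamp5. DESeq2 gave 556 genes for outer against inner members, all among the 1211, and members within 10 spacings of the edge, a setting chosen after seeing the data, gave 1160. Cdkn2a in members minus other spots was -0.122 CPM, and -0.138 with the top 3%. A section with 0 UMIs in members lies below the others whatever its level, so its sign and test carry no weight. Avp turned to 0.34 for PTX+GCV with the score without Lamp5, and Sst for PTX against Control to -0.0669 with the top 10%. Section numbers do not pair sections, and with the number as a replicate block 26, 9 and 28 genes passed, and 0 of each difference.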
